A study of Drosophila melanogaster with 4 samples.

Results

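Binding sites of the RNA helicase Maleless (MLE) in male Drosophila melanogaster embryos of 0-2 h were compared between control mothers and mothers depleted of CLAMP. The members were chosen by list, not by signal, as every called peak of the control 0-2 h list and of the CLAMP RNAi 0-2 h list on the X, the 4 large autosome arms and chromosome 4 (build dm6). There were 28246 control peaks and 22489 CLAMP RNAi peaks, together 50735 of the 91651 peaks in the 4 lists of the series. Repeats with equal ends were first collapsed to the highest score. Peaks that met an interval of the other 0-2 h list by 1 base or more were called common, and the rest control-only or RNAi-only. Sites were mapped by CUT&RUN, in which an antibody directs a nuclease to a chromatin protein and the released DNA is sequenced. The antibody was a rat antibody against MLE.

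Whole male embryos came from crosses with the meiotic drive stocks SD72/CyO and SPSD/CyO, which were used to obtain sons. Control mothers were MTD-GAL4>GFPRNAi and the others MTD-GAL4>CLAMPRNAi, with UAS-CLAMPRNAi[val22]. Both kinds of mother therefore carried the driver MTD-GAL4, which acts in the female germ line, and the design text describes the depletion as one of maternal CLAMP. The labels place 0-2 h before the maternal to zygotic transition, and embryos came from several timed collections. For 2-4 h, used below to look sites up again, the sample titles say before and the design text after that transition. Each group was represented by 1 peak list, although the design text names 2 replicates, and how these were pooled is not stated. Differences between the lists therefore have no replicate check, and no test between genotypes was made. Intervals below are exact binomial 95% intervals, which cover counting error over peaks or genes only. The read depth of each list is unknown, and peak lists cannot show how far CLAMP was depleted.

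MLE is the helicase of the male-specific lethal (MSL) complex, which raises transcription of the single male X chromosome. It remodels the roX RNAs so that they can join the MSL proteins, and it also acts in RNA processing away from the X. CLAMP is a zinc finger protein that binds GA repeats on all chromosomes and recruits the MSL complex to the X. Before the transition the embryo lives mostly on RNA and protein supplied by the mother, and few of its own genes are transcribed.

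The strongest MLE sites were the same places in both lists. The strongest peak of either list lay in Cdep at chr3R:4919031-4919411, with identical ends in control and CLAMP RNAi. The next, in spok, a gene of ecdysone synthesis, lay at chr3R:3344683-3345092 in control and began 1 base earlier in CLAMP RNAi. Ranks 3 in control and 4 in CLAMP RNAi fell on one site in gpp, the histone H3 methyltransferase Grappa, at chr3R:6416581-6416968 in control. Glg1 on 3L held the site of rank 5 in both lists, at chr3L:21498394-21498824 in control. Of the 10 strongest control peaks, 7 overlapped one of the 10 strongest CLAMP RNAi peaks. This number was 86 for the strongest 100 and 841 for the strongest 1000.

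Other leading common sites differed more in rank. The site next to CG12115 at chrX:9190664-9191042 ranked 6 in control, where it was the strongest of the X, and 23 in CLAMP RNAi. The strongest X site in CLAMP RNAi lay in CG42699 at chrX:5788673-5789077 and ranked 3, whereas its control counterpart at chrX:5788644-5789128 ranked 134. The score percentile, the share of peaks of the list with a score at or below that of a peak, was 99.5% for this control peak. The score is the authors' own value per peak and is not on one scale in the 2 lists, so only ranks and percentiles within a list are compared. Peaks over a pair of alanine tRNA genes, tRNA:Ala-TGC-1-1 and tRNA:Ala-TGC-2-1, had identical ends in both lists, chr2R:17391646-17392414, and ranked 9 in control and 12 in CLAMP RNAi. On chromosome 4 the strongest control peak lay in Eph, an axon guidance receptor kinase, at chr4:616840-617220 (rank 320, and rank 394 in CLAMP RNAi). The strongest CLAMP RNAi peak of that chromosome lay in pan, the TCF factor of Wnt signalling, at chr4:97991-98703 (rank 211), and its control counterpart ranked 1012.

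Among weaker peaks the lists parted. Of 28246 control peaks, 11830 were control-only, which is 41.9% (41.3% to 42.5%). Of 22489 CLAMP RNAi peaks, 5758 were RNAi-only, which is 25.6% (25.0% to 26.2%). This contrast depended on list length. With the control list cut to its 22489 strongest peaks, the length of the CLAMP RNAi list, 7712 peaks were control-only. RNAi-only peaks then numbered 7380, since some lost their control partner to the cut. Common peaks made up 65.7% of the cut control list and 67.2% of the CLAMP RNAi list. Because most overlaps join 1 peak to 1 peak, lists of equal length must give nearly equal shares. The cut therefore does not test the contrast. Common peaks numbered 16416 on the control side and 16731 on the CLAMP RNAi side, because 407 control peaks met more than 1 CLAMP RNAi peak and 101 CLAMP RNAi peaks met more than 1 control peak. One-sided peaks were weak and narrow in both lists. The median score percentile was 29.9% for control-only peaks and 70.2% for common control peaks, and in CLAMP RNAi it was 28.3% for RNAi-only and 62.0% for common peaks. The lowest width, 200 bp, made up 40.5% (39.6% to 41.4%) of control-only and 42.2% (40.9% to 43.5%) of RNAi-only peaks. It made up 8.50% of common control peaks and 11.2% of common CLAMP RNAi peaks. The share found in the other list climbed with each score decile. For control peaks it went from 27.0% (25.3% to 28.9%) in the weakest decile to 55.7% in the sixth and 97.7% in the ninth. For CLAMP RNAi peaks it went from 47.6% (45.2% to 49.9%) through 76.6% to 99.2% in the same deciles.

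**Figure D1:**
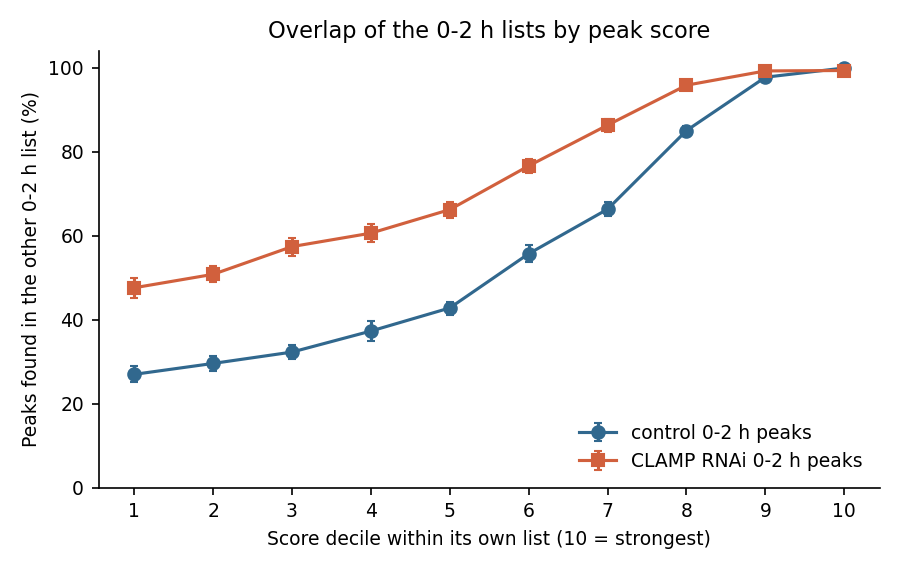
Share of the peaks of each 0-2 h list that overlap a peak of the other (vertical axis, %), by score decile within their own list (horizontal axis, 10 strongest), with exact 95% intervals. Blue circles are control peaks and orange squares CLAMP RNAi peaks; both climb to above 99% in the strongest decile, and the CLAMP RNAi points lie above the control points up to the ninth.

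Common sites coincided closely. In the 15825 pairs that were 1 to 1, the median shared stretch was 368 bases, or 81.2% of the span of both peaks, and midpoints lay a median of 29 bp apart (90% within 138 bp). Both ends were equal in 1477 pairs. The control peak was the wider in 8157 pairs and the CLAMP RNAi peak in 5646, with a median difference of -1 bp (CLAMP RNAi minus control). The 1 base rule left few sites at its edge. Only 157 common control peaks shared 20 bases or fewer, while 28 control-only and 26 RNAi-only peaks lay within 20 bases of a peak of the other list, the closest at 1 and 2 bases. The median distance from a one-sided peak to the nearest peak of the other list was 1805 bp for control-only and 1268 bp for RNAi-only peaks.

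Score percentiles of the paired peaks had a Spearman correlation of 0.73 over 15825 pairs, which share their 2 lists and are no independent replicates. The percentiles come from lists of different length, and the control list holds more weak one-sided peaks below the shared ones. The median difference of -2.92 points (CLAMP RNAi minus control) therefore gives no direction. The 5 pairs whose CLAMP RNAi percentile lay furthest below control were in Doa, a kinase of SR splicing factors, alphaTub84B, a tubulin, pros, a neural transcription factor, side-VIII and Mnr. At Doa (chr3R:28901399-28901778 in control) the percentile was 89.9% in control and 2.20% in CLAMP RNAi, where the peak was 204 bp instead of 380 bp wide. At alphaTub84B (chr3R:7088140-7088420) it was 85.0% and 2.20%, and at pros (chr3R:11341087-11341421) 85.1% and 2.37%. Each of these 5 sites also had a control 2-4 h peak, at percentiles of 58.1% for Doa, 56.6% for alphaTub84B and 63.4% for pros.

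The CLAMP RNAi percentile lay furthest above control in Alh, which encodes a chromatin protein related to AF10. There the control list had a 200 bp peak at the lowest score, 13 (percentile 3.70%), at chr3R:7121763-7121962. The CLAMP RNAi list had a 368 bp peak at chr3R:7121605-7121972 with a score of 5277 (98.7%). The control 2-4 h list held a peak there at 49.2% and the CLAMP RNAi 2-4 h list held none. The next 4 such pairs lay in tmod, an actin filament capping gene, near CG3847, near msopa and in a stretch of 3L far from any gene. At tmod the percentile was 3.70% in control and 83.5% in CLAMP RNAi.

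**Figure D2:**
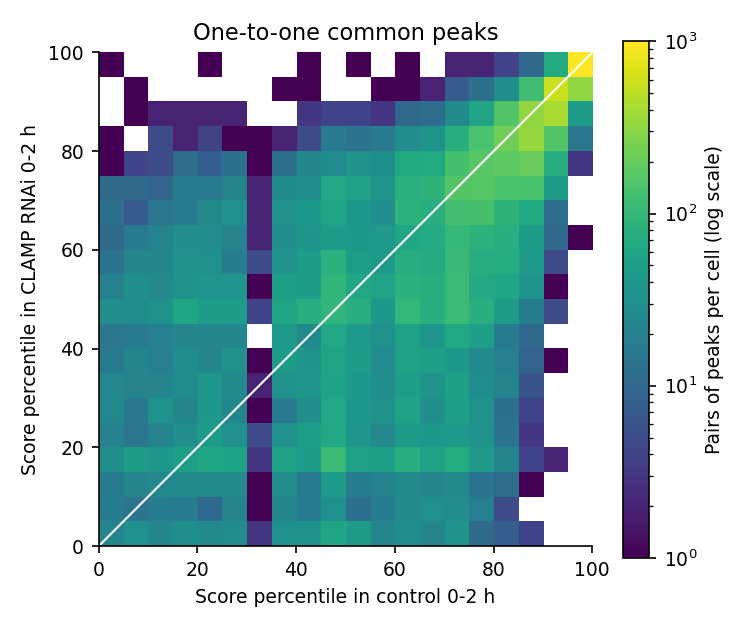
Score percentile of 15825 common peaks paired 1 to 1, in control 0-2 h (horizontal) and CLAMP RNAi 0-2 h (vertical), in cells of 5 points; colour is the number of pairs on a log scale and the white line marks equal percentiles. Most strong pairs lie near the line, weak pairs spread widely, and few pairs have a control percentile of 30 to 35.

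Strong control peaks without a CLAMP RNAi peak were rare. Only 2 lay in the top 10% of control scores, or 0.0702% (0.00851% to 0.254%) of the peaks there. One lay in CG42699 at chrX:5786155-5786535 (percentile 96.2%), close to the very strong common site of that gene named above, and had a peak in both 2-4 h lists, at percentiles of 91.1% (control) and 15.8% (CLAMP RNAi). The other lay in clos at chr2R:9592943-9593323 (91.4%) and had a control 2-4 h peak at 74.7% and no CLAMP RNAi 2-4 h peak. The next pair lay in grh, the epithelial transcription factor Grainy head, as narrow peaks at chr2R:17820777-17820977 (89.4%) and chr2R:17819767-17819966 (87.9%). Neither grh peak was found in control 2-4 h, and both overlapped a CLAMP RNAi 2-4 h peak. Six4, a homeobox gene of mesoderm, followed at chr3L:20791947-20792327 (87.6%). The strongest control-only peaks of the remaining arms lay in Fer1 on 3R (87.6%), robo2, an axon guidance receptor, on 2L (86.4%) and toy, a Pax6 gene, on chromosome 4 (81.5%). These last 4 sites were found in control 2-4 h and not in CLAMP RNAi 2-4 h.

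RNAi-only peaks reached further up. The top 10% of CLAMP RNAi scores held 15 of them, still only 0.666% (0.373% to 1.10%) of the peaks there. Each was wider than 300 bp, from 358 to 596 bp. The strongest lay at chr3R:30905812-30906189, 279 bp from lncRNA:CR46220 (rank 175), and overlapped peaks of both 2-4 h lists, at percentiles of 86.8% for control and 97.4% for CLAMP RNAi. The next lay in cno, the adherens junction protein Canoe, at chr3R:5188550-5188916 (rank 343), with a control 2-4 h peak at 61.9%. The one in cv-2, a BMP binding protein, at chr2R:21358225-21358602 (rank 747) had identical ends in both 2-4 h lists, at low percentiles of 29.9% in control and 41.4% in CLAMP RNAi. Of the 15, 3 were found in both 2-4 h lists, 2 in control 2-4 h alone, 4 in CLAMP RNAi 2-4 h alone and 6 in neither.

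The 4 strong sites of CLAMP RNAi at both ages and of neither control list lay at 3 places. A pair at chr3R:1456106-1456701 (rank 619) and chr3R:1461789-1462358 (rank 1041) lay in Myo81F, a myosin gene that spans 1965.9 kb at the base of 3R. Another lay at chr3L:24579021-24579523 (rank 856), with no annotated gene within 24820 bp. The last lay in CG31495 and the pseudogene CR46415, at chr3R:13838165-13838541 (rank 1921). Their CLAMP RNAi 2-4 h percentiles were 15.8% and 61.9% in Myo81F, 83.1% on 3L and 85.7% in CG31495. The 6 found in neither 2-4 h list included GCS2alpha, the catalytic subunit of glucosidase 2, at chrX:21600311-21600674 (rank 1239), jvl at chr3R:14764462-14764830 (rank 1341) and ND-AGGG at chr3L:24976872-24977230 (rank 2183).

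Peak numbers of the 2 lists were closer on the X than on the autosomes. It held 6655 control and 5828 CLAMP RNAi peaks, a ratio of 0.876, and the autosomes together held 21591 and 16661, a ratio of 0.772. Single large autosome arms had ratios from 0.753 (2R) to 0.777 (2L), and chromosome 4 had 182 and 154 peaks (0.846). Control-only peaks made up 32.3% (31.2% to 33.5%) of control peaks on the X and 44.8% (44.2% to 45.5%) on autosomes. RNAi-only peaks made up 20.8% (19.8% to 21.9%) of CLAMP RNAi peaks on the X and 27.3% (26.6% to 28.0%) on autosomes. Chromosome 4 had the highest RNAi-only share of the 6 arms, 40.3% (32.4% to 48.5%), on 62 peaks. The X held 27.4% (26.7% to 28.1%) of common control peaks, 18.2% (17.5% to 18.9%) of control-only and 21.0% (20.0% to 22.1%) of RNAi-only peaks. Among control peaks of like score, common peaks were more frequent on the X from the weakest to the ninth decile, for example 50.3% (46.7% to 53.8%) against 40.9% (39.2% to 42.7%) on autosomes in the fifth and 90.2% (88.0% to 92.2%) against 83.2% (81.6% to 84.7%) in the eighth. In the strongest decile both stood at 99.9%. Among CLAMP RNAi peaks of like score, the X share was also the higher from the weakest to the eighth decile. It was 48.5% (43.6% to 53.3%) against 47.3% (44.6% to 50.0%) in the weakest and 67.7% (63.9% to 71.3%) against 65.7% (63.5% to 67.8%) in the fifth. In this list the X and autosome intervals were apart only in the second decile, 57.2% (53.0% to 61.3%) against 49.0% (46.9% to 51.2%), and the fourth, 68.7% (64.2% to 73.0%) against 58.1% (55.6% to 60.6%).

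**Figure D3:**
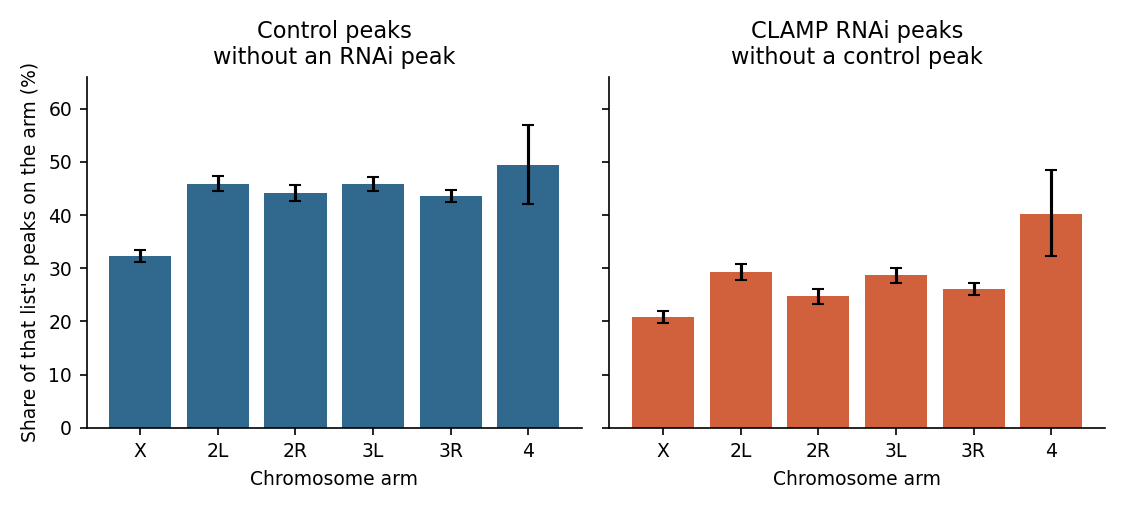
Share of the peaks of each chromosome arm that lack a peak in the other 0-2 h list (vertical axis, %), for control peaks (left) and CLAMP RNAi peaks (right), with exact 95% intervals. The X bars, 32.3% and 20.8%, are the lowest in both panels, and chromosome 4 has wide intervals because it holds few peaks.

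The 2-4 h lists, which took no part in defining the classes, gave a second look at the one-sided peaks. Common peaks recurred most. The control 2-4 h list held 90.2% (89.7% to 90.6%) of those on the control side, and the CLAMP RNAi 2-4 h list 52.1% (51.4% to 52.9%). Of control-only peaks the former held 29.6% (28.8% to 30.5%) and the latter 11.3% (10.7% to 11.9%). RNAi-only peaks had higher shares than control-only peaks in both, 38.1% (36.9% to 39.4%) and 16.2% (15.2% to 17.2%). The CLAMP RNAi 2-4 h list is the shorter, with 15890 peaks against 25026, and it is unlike the other 3 lists in further ways. Its median peak width was 245 bp, against 375 bp in control 2-4 h and 364 bp and 366 bp in the 0-2 h lists. It held 68 repeats with equal ends, against 2697 in control 2-4 h. The part of these differences in the shares was not tested. With classes made from the upper 50% of scores of each 0-2 h list, these shares were 67.0% and 25.0% for control-only and 74.4% and 31.7% for RNAi-only peaks. These classes, of 5348 and 2605 peaks, also hold peaks whose partner scored in the lower 50% of the other list. They are therefore not the stronger part of the classes above.

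The same order was seen within bands of score percentile below the top 10%. Bands from 2 lists of different length are not matched for strength. Among peaks in the lower 50% of their own list's scores, control 2-4 h held 25.6% (24.7% to 26.5%) of control-only and 34.8% (33.4% to 36.1%) of RNAi-only peaks, against 75.7% (74.4% to 76.9%) of common control peaks. Above that and below the top 10% it held 44.3% (42.3% to 46.2%) of control-only and 54.7% (51.5% to 57.8%) of RNAi-only peaks. In the top 10% control 2-4 h held both control-only peaks and 5 of 15 RNAi-only peaks, or 33.3% (11.8% to 61.6%), and CLAMP RNAi 2-4 h held 7 of those 15. Peaks found in neither 2-4 h list numbered 7692 of the control-only (65.0%) and 3165 of the RNAi-only (55.0%). Those found only in the 2-4 h list of their own genotype numbered 2804 of the control-only (23.7%) and 397 of the RNAi-only (6.89%). Those found only in the 2-4 h list of the other genotype numbered 631 (5.33%) and 1661 (28.8%).

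**Figure D4:**
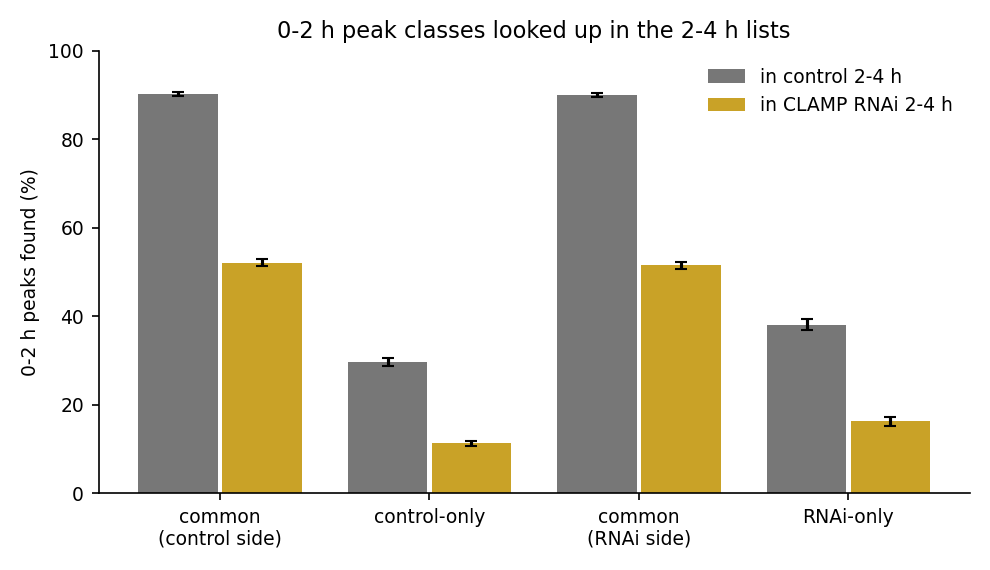
Share of each class of 0-2 h peaks (horizontal axis) that overlaps a peak of the control 2-4 h list (grey) or the CLAMP RNAi 2-4 h list (yellow), in %, with exact 95% intervals. Common peaks stand near 90% and 52%, and RNAi-only peaks (38.1% and 16.2%) stand above control-only peaks (29.6% and 11.3%).

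Most sites of each class lay inside annotated genes. The share was 75.6% (75.0% to 76.3%) for common control peaks, 74.0% (73.2% to 74.8%) for control-only and 73.6% (72.4% to 74.7%) for RNAi-only peaks. The part of the arms that genes cover was not set beside these shares, so they show no preference for genes. Of 17684 RefSeq genes on the 6 arms, 4788 (27.1%) were overlapped by a peak in both lists, 2006 (11.3%) in control only, 790 (4.47%) in CLAMP RNAi only and 10100 (57.1%) in neither. Of the genes with a peak in both lists, 263 (5.49%) had no common peak, as at msl-2. With the upper 50% of scores of each list, 1160 genes had a peak in control only and 482 in CLAMP RNAi only. A gene of one list need not hold a one-sided peak, since a common peak can reach into the gene in one list alone. This was so for 95 of the 2006 control only and 48 of the 790 CLAMP RNAi only genes. Genes overlapped in one list only were short, with a median length of 2.10 kb for control only and 1.97 kb for CLAMP RNAi only, against 6.47 kb for both. They mostly rested on a single peak, in 87.8% of control only and 94.9% of CLAMP RNAi only genes. At 2-4 h, 35.1% (33.0% to 37.2%) of the control only genes and 44.4% (40.9% to 48.0%) of the CLAMP RNAi only genes had a peak in the control list.

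A few genes had several peaks in one list and 0 in the other. In control only, blo on 2R led with 8 peaks over its 23.8 kb, none of them strong (score percentiles from 3.70% to 53.9%). It was followed by sas, a cell surface gene with 5 peaks, and by Sap130, hlk and CG32333 with 4 each. The strongest single peak among these lay in sas at chr3R:7174718-7175105 (78.2%). The control 2-4 h list had 3 peaks at blo, 3 at sas, 2 at Sap130, 2 at hlk and 1 at CG32333. In CLAMP RNAi only, CG6664 and dx, the Notch regulator Deltex, had 3 peaks each, and GCS2alpha, Mitf and FASN3 had 2. The strongest were those of GCS2alpha (94.5%) and of Mitf, a lysosomal gene regulator on chromosome 4 (81.8%). Control 2-4 h held 1 peak at CG6664, 1 at dx, 1 at Mitf, 2 at FASN3 and 0 at GCS2alpha.

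Very long genes held the most peaks of every class. On the X, kirre, a cell adhesion gene of muscle founder cells that spans 394.1 kb, carried 139 control and 130 CLAMP RNAi peaks, of which 40 were control-only and 26 RNAi-only. Myo81F carried 126 and 108, with 43 control-only and 25 RNAi-only. The teneurin Ten-a on the X carried 103 and 87, and bru3, an RNA-binding Bruno-like gene on 3L, 83 and 66. In bru3, 31 of the control peaks were control-only and 15 of the CLAMP RNAi peaks RNAi-only. In the other direction, mgl, the endocytic receptor Megalin on the X, had 52 control and 60 CLAMP RNAi peaks. Rbfox1, a splicing regulator on 3L, had 39 and 45, with 9 control-only and 16 RNAi-only. Of the 319 genes of 50 kb or more, 262 had fewer peaks in CLAMP RNAi, 19 as many and 38 more, with a median difference of -4.0 peaks. Over all 7584 genes with a peak, 3789 had fewer, 2395 as many and 1400 more, and the median was 0.0. The part of the shorter CLAMP RNAi list in these numbers was not tested.

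**Figure D5:**
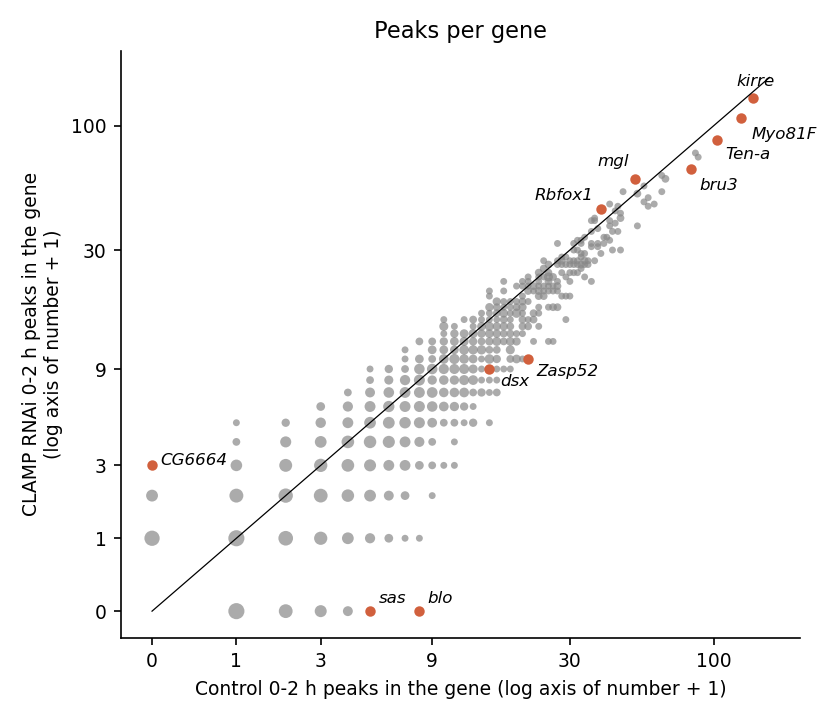
Number of peaks per gene in control 0-2 h (horizontal) and CLAMP RNAi 0-2 h (vertical), each on a log axis of the number plus 1; larger grey dots stand for more genes and the line marks equal numbers. Most long genes lie below the line, mgl and Rbfox1 above it, and blo and sas have 8 and 5 control peaks and 0 in CLAMP RNAi.

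Counts of functional groups below stand against 27.1% of all genes with a peak in both lists, 11.3% in control only and 4.47% in CLAMP RNAi only. The share with a peak in both lists depended on gene length, and was 10.1% under 2 kb, 33.5% from 2 to under 10 kb, 90.3% from 10 to under 50 kb and 99.7% from 50 kb. Genes of the dosage compensation pathway were looked at first. Of 9 genes, 6 had a peak in both lists, 0 in control only and 1 in CLAMP RNAi only, and the group held 12 control and 10 CLAMP RNAi peaks. The RNAi target Clamp, on 2L, had 2 common peaks, at chr2L:22166579-22167499 in control (score percentile 98.5%, and 96.7% in CLAMP RNAi) and at chr2L:22167865-22168319 (93.2%, and 96.3% in CLAMP RNAi). Clamp expression was not measured. At msl-1, the scaffold of the complex, 3 control peaks faced 1 CLAMP RNAi peak, and the common one had percentiles of 80.0% and 76.3%. At msl-2, the male-limiting subunit, each list had 1 peak and these did not overlap. The kinase gene JIL-1 had 3 and 2 peaks. The acetyltransferase gene mof had 1 and 2, msl-3 had 0 and 1, and mle itself had 0 in both. Of the roX RNA genes, roX1 had 2 control peaks and 1 CLAMP RNAi peak, all at percentiles of 24.0% or 24.2%, and roX2 had 0 in both within its annotated ends.

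Genes of a group of GA-binding and pioneer factors, which also counts Clamp, were mostly covered in both lists. Of 9, 8 had a peak in both, 0 in control only and 1, Adf1, in CLAMP RNAi only. Their 83 control and 82 CLAMP RNAi peaks were nearly equal in number, whereas all genes together had 23530 and 18784 peak overlaps. The sites were not all the same, since 25 of the former were control-only and 19 of the latter RNAi-only. Most of the peaks lay in lola (28 and 27), psq and grh (14 and 14). The strongest site at opa, a pair-rule zinc finger gene, lay at chr3R:4867728-4868105 in control and ended 1 base earlier in CLAMP RNAi (99.6% and 99.8%). At grh the strongest, chr2R:17824666-17825048, had equal ends in both lists (99.8% and 99.7%), beside the pair of control-only peaks described above. The best percentiles were 99.3% and 99.1% at zld, the pioneer factor Zelda, on 8 and 9 peaks, and 99.2% and 99.3% at psq on 19 and 21. Trl, which encodes GAGA factor, had 6 control and 3 CLAMP RNAi peaks, of which 4 were control-only and 1 RNAi-only. These genes are long, with a median of 17.1 kb against 1.71 kb for all genes. Of all genes of 10 to under 50 kb, 90.3% had a peak in both lists.

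Of 12 sex determination genes, 7 had a peak in both lists, 2 (her and vir) in control only and 0 in CLAMP RNAi only. Of the 9 with a peak, 0 had more peaks in CLAMP RNAi, 3 as many and 6 fewer, against 1400, 2395 and 3789 of all 7584 genes with a peak. The 6 include fru (131.3 kb) and mub (87.9 kb), and 262 of all 319 genes of 50 kb or more had fewer. They also include her and vir, with 1 control peak each, at percentiles of 45.4% and 3.70%. At dsx, whose sex-specific splicing sets male or female development, 15 control peaks faced 9 CLAMP RNAi peaks. All 9 were common, and 6 control peaks were control-only. The strongest dsx site lay at chr3R:7931647-7932249 in control (91.7%) and began at the same base in CLAMP RNAi (93.4%). At fru there were 45 and 36 peaks, at mub, a KH-domain RNA-binding gene, 23 and 16, and at Sxl, the master switch, 12 and 12 with 8 of the control peaks common. Of 9 genes in a group drawn up for X chromosome counting, 7 had a peak in both lists and 0 in one only, and the X-linked signal genes sisA and sc had none. The strongest of this group was hry, the repressor Hairy, with 1 peak of equal ends in both lists at chr3L:8676863-8677228 (99.4% and 99.7%). It is a pair-rule gene and is counted in that group too. The next was dpn, at 83.0% and 83.2%.

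Genes of splicing and heterogeneous nuclear RNA packaging held many peaks. Of 32, 21 had a peak in both lists, 1 in control only (vir) and 1 in CLAMP RNAi only (glo), with 338 control and 310 CLAMP RNAi peaks. The group is uneven, since bru3, bru1 (46 and 41 peaks), mbl (45 and 46), Rbfox1 and heph, a polypyrimidine tract binding gene (28 and 27), carry most of them. At ps, the splicing factor Pasilla, both lists had 16 peaks, and the strongest site differed. It lay at chr3R:9450855-9451717 in control (94.7%) and at chr3R:9427823-9428188 in CLAMP RNAi (98.1%). At the place of the latter the control list had only a 206 bp peak of score 37 (40.5%). Hrb27C had 4 and 5 peaks, with best percentiles of 99.1% and 97.3%, and sqd had 4 and 3, with 99.2% and 99.1%.

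Patterning genes, only some of which are among the first that the embryo transcribes, were mixed. Of 14 gap genes, 11 had a peak in both lists, 2 (Kr and kni) in control only and 1 (gt) in CLAMP RNAi only, and 10 had fewer peaks in CLAMP RNAi. The strongest gap gene site, in tll, had equal ends in both lists, chr3R:30853884-30854264 (99.4% and 99.6%). Of 10 pair-rule genes, 7 had a peak in both, 2 (eve and prd) in control only and 1 (ftz) in CLAMP RNAi only. Each of these one-sided genes had 1 peak, at percentiles of 60.7% for Kr, 53.9% for kni and eve, 57.6% for prd, 37.1% for gt and 4.75% for ftz. Of 18 segment polarity genes, 14 had a peak in both, 2 (wg and gsb-n, with 2 control peaks each) in control only and 1 (smo) in CLAMP RNAi only.

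Of 25 dorsoventral genes, 16 had a peak in both lists, 3 (Doc3, ind and tld) in control only and 1 (sna) in CLAMP RNAi only. The tld peak, at chr3R:24751493-24751863, was the strongest of these (78.2%). The twi annotation, 63.0 kb long, had 22 and 15 peaks, and ush had 20 and 17. All 8 Hox genes had peaks in both lists, but their median length is 30.6 kb, and 90.3% of all genes of 10 to under 50 kb did so too. At Ubx 27 control peaks faced 17 CLAMP RNAi peaks, with 14 control-only and 4 RNAi-only. At Antp 30 faced 22, while abd-A had 4 and 6, Scr 8 and 9 and lab 2 and 3. Hox genes were thus divided, with fewer CLAMP RNAi peaks at 4, as many at 1 and more at 3.

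Of 24 Polycomb and trithorax group genes, 16 had a peak in both lists, 3 (E(z), ash1 and pho, with 1 weak control peak each) in control only and 0 in CLAMP RNAi only. The strongest site of this group was that of Su(z)2, at 98.9% and 98.4%. Of 17 insulator and architectural genes, 6 had a peak in both lists, 4 (Chro, Ibf1, su(Hw) and SMC3) in control only and 0 in CLAMP RNAi only. Nipped-B, the cohesin loader, had 5 and 9 peaks, of which 5 were RNAi-only. Of 37 early zygotic genes, several of them also in the groups above, 13 had a peak in both lists, 8 in control only and 4 in CLAMP RNAi only. These shares are 35.1%, 21.6% and 10.8%, against 27.1%, 11.3% and 4.47% of all genes, whose median length of 1.71 kb is close to the 1.72 kb of this group. The control only genes included stg, the cell cycle phosphatase String, and nullo, a cellularisation gene, with 1 peak each at 49.8% and 8.19%. The overlapping genes Sry-alpha and Sry-beta shared 1 control-only peak, which is counted for both among the 8.

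Gene families of many near-identical copies gave counts that depend on how reads were placed, which is not given in the sources used here. Of 111 replication-dependent histone genes, 0 had a control peak and 8 (7.21%, against 4.47% of all genes in CLAMP RNAi only) had a CLAMP RNAi peak, on 6 distinct peaks. All these RNAi-only peaks were weak, the highest at chr2L:21424982-21425310 across His4:CG31611 and His3:CG31613 (54.7%). At 2-4 h, 81 of the 111 genes had a control peak and 11 a CLAMP RNAi peak. Of 290 tRNA genes, 47 had a peak in both lists (16.2%), 40 in control only (13.8%, against 11.3% of all genes) and 15 in CLAMP RNAi only (5.17%, against 4.47%). Of these, 13 of the 40 and 4 of the 15 held only common peaks, which missed the short gene in the other list. Beside the alanine tRNA pair above, strong peaks lay over tRNA:Thr-CGT-1-1 (99.8% and 99.2%), tRNA:Ala-CGC-1-2 (99.7% and 99.5%) and tRNA:Gly-GCC-1-3 (99.7% and 99.8%). Of 85 cytoplasmic ribosomal protein genes, 20 had a peak in both lists (23.5%), 14 in control only (16.5%) and 7 in CLAMP RNAi only (8.24%), all but RpLP0 and RpL10 of the genes of one list with 1 peak. At RpL8, RpL26 and RpL12 that peak was common.

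Along the arms, most stretches held fewer peaks in CLAMP RNAi. Of 1338 windows of 100 kb with a 0-2 h peak, 1119 had fewer CLAMP RNAi than control peaks, 88 as many and 131 more, with a median difference of -4. The CLAMP RNAi list is the shorter, with 22489 peaks against 28246, and the part of its length in these counts was not tested. More CLAMP RNAi peaks were found in 4 of 14 windows on chromosome 4 (28.6%), 33 of 235 on the X (14.0%) and 17 of 252 on 2R (6.75%), with 2L, 3L and 3R between the X and 2R. The window with the most control-only peaks, 22, lay at chrX:1200001-1300000 and holds Atf3, CG3638 and DAAM, with 38 control and 25 CLAMP RNAi peaks. The next lay at chr3R:26700001-26800000, with 21 control-only peaks around Tl, the Toll receptor gene, and at chr3L:5300001-5400000, with 20. The largest differences in that direction were in this 3L window, with 31 control and 14 CLAMP RNAi peaks, and at chr2R:8700001-8800000, with 23 and 6. The latter holds sns, a myoblast fusion gene, and blo, and all 6 of its CLAMP RNAi peaks were common. At chr2R:15700001-15800000, around Zasp52 and tun, 36 control peaks faced 20. Zasp52, a gene of muscle attachment, had 21 and 10 over its whole length and tun 16 and 7.

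RNAi-only peaks were most numerous at chr3R:18900001-19000000, with 15 around CG42613 and gukh, where 20 control-only peaks lay as well. At chr2L:12600001-12700000, around the POU homeobox genes pdm2 and nub, 14 RNAi-only and 13 control-only peaks lay side by side. The window at chr3L:10500001-10600000, which lies in Rbfox1, held 14 RNAi-only and 6 control-only peaks, of 43 CLAMP RNAi and 35 control peaks. The largest excess of CLAMP RNAi peaks was at chr2L:21300001-21400000, just before the histone gene cluster, with 5 control and 15 CLAMP RNAi peaks, of which 11 were RNAi-only. The control 2-4 h list held 13 peaks in this window and the CLAMP RNAi 2-4 h list 11, so the 5 of control 0-2 h were the fewest of the 4 lists.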

How the data were processed

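The deposited peak lists held 1 interval per line with a name and a score, 1 list for each of 4 groups. Per the submitters' processing notes, FastQC, Trim Galore, BWA, Bowtie2, SAMtools, Picard 2.20.2 and MACS2 were used with genome build dm6; the role of each, the peak threshold, any control library and how replicates were pooled are not given in the sources used here. The score is the authors' deposited value for each peak, a whole number of at least 13, and was used only within a list. Rows with equal ends were collapsed to the highest score (2523 in control 0-2 h, 1555 in CLAMP RNAi 0-2 h). Coordinates are printed 1-based. Genes came from RefSeq Release 6, the assembly of dm6; its table has no strand or exons, so promoter, UTR, exon and intron were not told apart. No sequence was used here, and the planned share of promoters with a GA repeat was not computed. A gene was counted when a peak overlapped its annotated body. Overlaps were computed in Python 3.11.15 with pandas 2.3.3, and intervals with SciPy 1.17.1, after checks on simulated intervals and against bedtools.

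Named peaks were the 5 with the highest score in each class and the highest on each arm. Named genes were the 5 with the most peaks of each class, the 5 with the most peaks among those of one list only, and members of gene lists with a strong or one-sided peak. Named pairs were the 5 with the greatest percentile difference each way, and named windows the 3 with the most control-only or RNAi-only peaks. The windows with the largest difference in peak number, Zasp52, tun and the further strong RNAi-only peaks were chosen after their values were seen. Gene symbols matched the table in all but 3 cases. The members and lists were chosen with earlier results of these data known. Peaks on the Y and other sequences were left out of the comparisons. Alternatives were the overlap rule, the score range, the list length and the gene rule.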

Additional observations from a re-analysis of the deposited data

Results flagged for a closer look

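Peaks on the Y chromosome lay outside the comparisons above and were flagged as data left unanalysed there. The control 0-2 h list held 122 Y peaks and the CLAMP RNAi 0-2 h list 97. Of the control Y peaks, 78 were common, which is 63.9% (54.7% to 72.4%), and of the CLAMP RNAi Y peaks 77, which is 79.4% (70.0% to 86.9%).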

How the results depend on the processing

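Of 44 alternative values, 13 stayed within the counting interval of the reported value or, for gene counts, within 1.5 times of it, and 31 did not; all of these were planned. The share of control peaks with a CLAMP RNAi peak was 58.1% as reported. It was 55.0% when 50% of the shorter peak had to be shared and 64.9% when gaps of up to 500 bp counted. With the upper 50% of scores of each list it was 62.1%. With the control list cut to the length of the CLAMP RNAi list it was 65.7%. The share of CLAMP RNAi peaks with a control peak, 74.4%, was 70.2%, 80.3%, 77.3% and 67.2% in the same order. With lists of equal length the 2 shares, 65.7% and 67.2%, must lie close together, since most overlaps join 1 peak to 1 peak. In that order, control-only peaks were found in control 2-4 h in 26.8%, 34.8%, 67.0% and 34.1%, and RNAi-only peaks in 34.8%, 42.3%, 74.4% and 45.1%. In CLAMP RNAi 2-4 h they were found in 8.66%, 16.3%, 25.0% and 12.4% for control-only and 12.7%, 21.5%, 31.7% and 18.2% for RNAi-only peaks, so the RNAi-only share was the higher under all 4. With the upper 50% of scores the X share was 30.3% for common, 22.3% for control-only and 23.6% for RNAi-only peaks, and with gaps counted it was 16.7% for control-only and 18.8% for RNAi-only peaks. The upper 50% of scores gave 1160 genes with peaks in control only and 482 in CLAMP RNAi only. With lists of equal length these were 1372 and 1072. By construction the score rule leaves fewer peaks in both lists, and the list-length rule leaves fewer control peaks. A peak whose partner was cut then counts as one-sided. The other rules keep all peaks, and beyond that the cause was not tested. No paired analysis was possible because each group has 1 list, and for the same reason no replicate could be left out. The planned share of promoters with a GA repeat was not run, since no sequence was used here. Without read counts per peak, a peak missing from a list cannot be told apart from a weak one below the authors' threshold.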

Other observations

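Classes of short RNA genes differed in their overlap with 0-2 h MLE peaks. Of 269 snoRNA genes, 8 had a peak in both lists (2.97%), 8 in control only and 4 in CLAMP RNAi only, and of 260 miRNA genes 15 (5.77%), 14 and 4. Of 32 snRNA genes these were 4 (12.5%), 1 and 0, and of 98 rRNA genes 5 (5.10%), 0 and 0. Of all genes under 2 kb, 10.1% had a peak in both lists. Of 1959 lncRNA genes, 379 had a peak in both lists (19.3%), 201 in control only (10.3%) and 100 in CLAMP RNAi only (5.10%), against 30.4%, 12.1% and 4.54% of 13922 protein-coding genes. A pair of X-linked lncRNA genes of more than 200 kb, lncRNA:CR32773 and lncRNA:CR44357, were among the genes with the most peaks. The first had 88 control and 74 CLAMP RNAi peaks and the second 86 and 77. On the X, 36.7% of 2705 genes had a peak in both lists, and on autosomes 25.3% of 14979, while genes with a peak in CLAMP RNAi only made up 4.47% of both.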
